A study of Mus musculus with 11 samples.

Results

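The aryl hydrocarbon receptor (AhR) pathway and the Cyp1 enzymes were followed through mammary tumours of MMTV-Neu+/- mice, as the 7 genes Ahr, Arnt, Ahrr, Tiparp, Cyp1a1, Cyp1a2 and Cyp1b1. The genes were chosen by the symbol that the platform annotation gives to an array feature. They hold 21 of the 45220 features in the table of DMBA-treated tumours and 7 of the 22575 features in the table of untreated tumours, and all 7 genes are among the 16351 genes present in both tables. The tumours are 5 from mice given dimethylbenzanthracene (DMBA) and 6 from untreated mice. The female mice of both groups share the genotype MMTV-Neu+/-, a Neu (Erbb2) transgene driven by the MMTV promoter, which is active in mammary epithelium. Each tumour was hybridised on a 2-colour array against RNA of a whole mouse reference, and the values are log2 ratios. No age, dose or time was used here. Whether each tumour is from its own mouse is not labelled, so the p-values cover the spread among these arrays, part of which may be technical. One number occurs in the titles of both DMBA 3 and DMBA 4, and their arrays had a Pearson r of 0.893 over genes, against 0.823 to 0.874 for the other 9 pairs of DMBA arrays. Whether that pair shares a mouse or tumour is not known, and both were kept, with the alternative of joining them into 1 tumour.

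AhR is a transcription factor of the bHLH-PAS family that waits in the cytoplasm with HSP90 chaperones until a ligand binds. Polycyclic hydrocarbons such as DMBA are ligands. The receptor then pairs with ARNT in the nucleus, binds dioxin response elements with the core GCGTG, and switches on Cyp1a1, Cyp1a2 and Cyp1b1 as well as its own repressors Ahrr and Tiparp. CYP1 enzymes oxidise the hydrocarbon, and CYP1B1 together with microsomal epoxide hydrolase turns DMBA into the diol epoxide that damages DNA. In mice CYP1B1 is the form that activates DMBA outside the liver.

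The comparator is RNA of the whole mouse, so a ratio says nothing of normal mammary gland. The dye of the tumour channel is not given clearly by the labels, so the direction was read from liver genes, which the pool holds. The median log2 ratio of the liver markers lay between -3.08 and -2.35 on DMBA arrays and between -3.77 and -3.41 on untreated arrays. Tumour over reference is therefore the likely direction, and all signs rest on it. Luminal epithelial markers lay between 2.60 and 3.20 on DMBA arrays and between 1.88 and 2.46 on untreated arrays. Of these 7 markers 6 were called higher in each group. The exception was Cdh1 in DMBA-treated tumours (mean -0.126) and Esrp1 in untreated tumours (mean -0.145). In the other group Cdh1 averaged 0.421 and Esrp1 3.125. The labelled mammary tumour thus carries most of its defining markers. Adipocyte and basal epithelial markers were low throughout, with 6 of 7 and 6 of 6 called lower in each group. Fewer cells of a type and less RNA per cell cannot be told apart in such bulk RNA. Genes counted as called had a limma p below 0.05 after Benjamini-Hochberg adjustment over all genes of their table. All adjusted p-values below come from that fit unless single features are named.

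The receptor and 4 of its targets were below the reference in both groups, while the partner Arnt was above it. In DMBA-treated tumours 5 of the 7 genes were called lower (31.7% of all genes were) and 1 was called higher (26.1% of all genes were). In untreated tumours the counts were again 5 lower (32.1% of all genes) and 1 higher (28.8% of all genes). Ahr, Ahrr, Tiparp, Cyp1a1 and Cyp1b1 were the lower genes, Arnt the higher one, and Cyp1a2 was not called in either group. Counting either direction, 6 of 7 were called in each group, against 57.8% of all genes in DMBA-treated and 60.9% in untreated tumours. Called and at least 2-fold lower were 4 of 7 in DMBA-treated tumours (18.8% of all genes) and 4 of 7 in untreated tumours (15.6%). Called and at least 2-fold higher were 0 of 7 in both (8.28% and 6.8% of all genes in the same order of groups). Called and at least 4-fold below the reference in DMBA-treated tumours were Ahrr, Tiparp and Cyp1a1, as were 8.84% of all genes. No member was so in untreated tumours, against 7.85% of all genes.

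**Figure D1:**
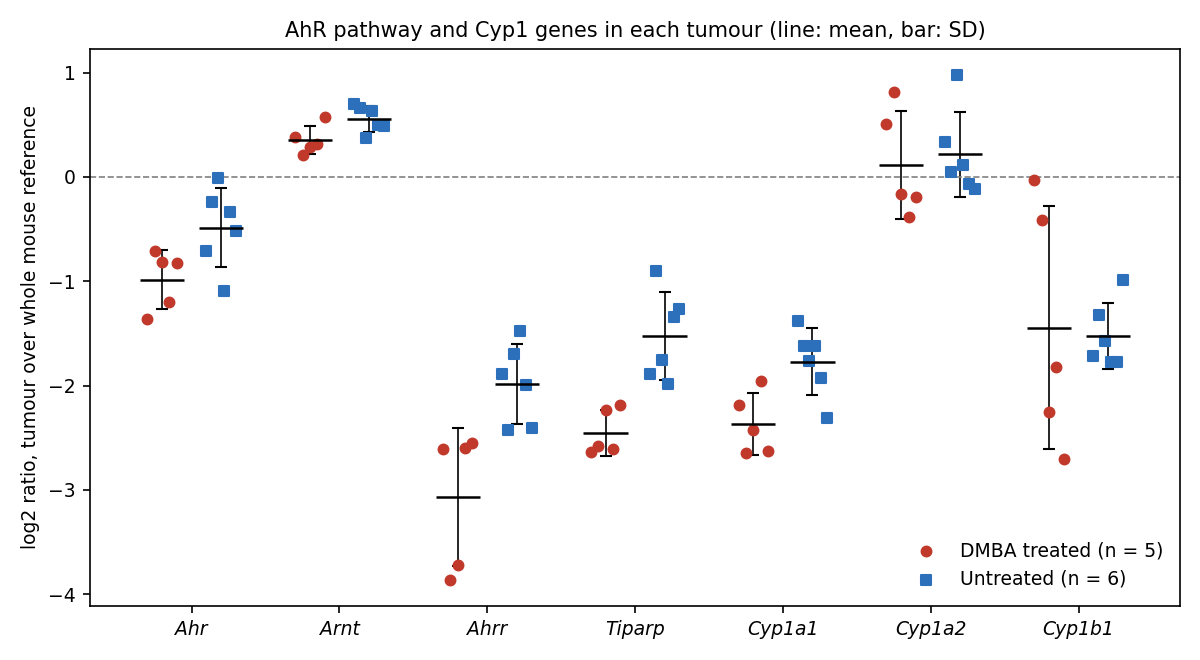
Log2 ratio of tumour over whole mouse reference (vertical axis) for the 7 genes in each of 5 DMBA-treated tumours (circles) and 6 untreated tumours (squares), with features of a gene averaged; lines are means and bars SDs. Ahrr and Tiparp values of the groups do not overlap, and Cyp1b1 spreads from -2.70 to -0.03 among DMBA-treated tumours.

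Ahr, the receptor itself, read -1.36, -0.71, -0.82, -1.20 and -0.83 in DMBA 1 to 5, and its lowest, median and highest values in untreated tumours were -1.09, -0.43 and -0.01. Every tumour of both groups lay below the reference, and the groups overlapped. The mean was -0.98 ± 0.28 in DMBA-treated tumours (SD, n = 5, 1.98-fold lower, adjusted p = 0.000636) and -0.485 ± 0.38 in untreated tumours (n = 6, 1.4-fold lower, adjusted p = 0.0132). In the untreated group the call ended in a test against 1.5-fold (adjusted p = 1).

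The DMBA table reads Ahr through 10 features, all annotated to the same transcript, which shows how closely repeated readings of 1 gene fall. Feature means lay between -1.19 and -0.67, and all 10 were called lower on their own (adjusted p over all features between 0.000374 and 0.00644). On a single array the SD over the features was between 0.08 and 0.28, while the SD between tumours of their mean was 0.28. DMBA 1 was the lowest tumour in 9 of the 10 features and DMBA 4 in the other 1. DMBA 2 was the highest in 7 of them and DMBA 5 in 3. DMBA 1 was thus low whichever feature was read. The 10 features are repeated readings of the same RNA, not independent tumours.

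Arnt, the partner that AhR needs to bind DNA and that HIF factors share, varied least of the 7 genes as a mean over features. It read 0.38, 0.21, 0.29, 0.31 and 0.57 in DMBA 1 to 5, and its lowest, median and highest values in untreated tumours were 0.38, 0.57 and 0.69. All 11 tumours were above the reference. The mean was 0.35 ± 0.14 in DMBA-treated tumours (n = 5, adjusted p = 0.0197) and 0.56 ± 0.12 in untreated tumours (n = 6, adjusted p = 0.000322). In both groups the call ended against 1.5-fold (adjusted p = 1 in each), and in DMBA-treated tumours it also ended without DMBA 1, DMBA 3 or DMBA 4 (adjusted p = 0.0613, 0.0501 and 0.0508).

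The 4 Arnt features of the DMBA table did not read alike. Features 7780, 34207 and 43056 averaged 0.81, 0.61 and 0.55 and were above 0 in every DMBA-treated tumour. Feature 37365 averaged -0.57 and was below 0 in every DMBA-treated tumour, at -0.31, -1.03, -0.49, -0.71 and -0.31. It is annotated to a cDNA clone, as is feature 7780. All 4 features were called, 3 higher and 1 lower (adjusted p over all features between 0.00228 and 0.0336). The gene mean therefore joins readings of opposite sign. Single Arnt features had SDs of 0.297, 0.302, 0.438 and 0.298 over the DMBA-treated tumours, all above the 0.22 of Tiparp. Feature 43056 has the same annotated transcript as the untreated feature, and its mean of 0.55 differed from the untreated mean of 0.56 by -0.005.

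**Figure D2:**
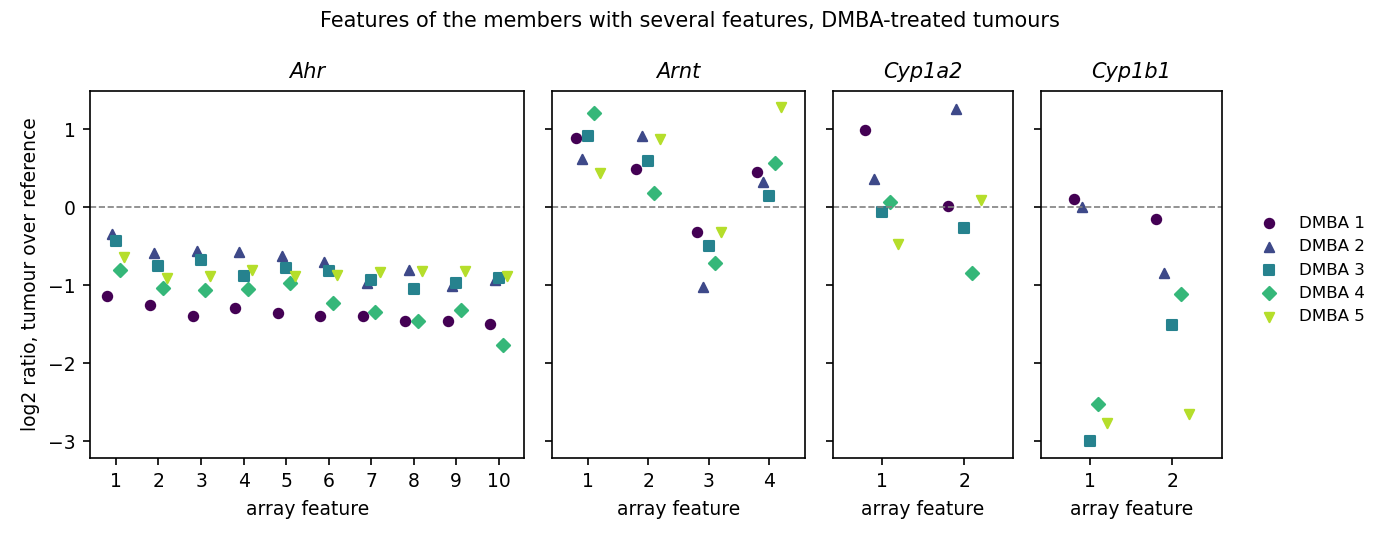
Log2 ratio (vertical axis) in each of the 5 DMBA-treated tumours, one symbol per tumour, for the 10 Ahr, 4 Arnt, 2 Cyp1a2 and 2 Cyp1b1 features of the DMBA table, numbered along the horizontal axis. DMBA 1 is the lowest tumour on 9 of the 10 Ahr features, 1 Arnt feature lies below 0 where the other 3 lie above it, and the Cyp1b1 features put DMBA 1 and DMBA 2 above the other tumours.

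The response element through which AhR acts can be searched in the start regions of the genes. RefSeq promoter sequences of GRCm38.p6 were found for 6 of the 7 genes, all but Ahr, and the 250 bases before the start were searched on both strands for GCGTG. The core stood in 28.2% of all 32851 promoters of that length, and in 2.77% it stood 3 times or more. The sequences of the 4 targets that were below the reference are shown 5′ to 3′ on the gene's strand, with the core in capitals, as GCGTG or, on the other strand, CACGC.
Ahrr, chr13:74292332-74292581, minus strand: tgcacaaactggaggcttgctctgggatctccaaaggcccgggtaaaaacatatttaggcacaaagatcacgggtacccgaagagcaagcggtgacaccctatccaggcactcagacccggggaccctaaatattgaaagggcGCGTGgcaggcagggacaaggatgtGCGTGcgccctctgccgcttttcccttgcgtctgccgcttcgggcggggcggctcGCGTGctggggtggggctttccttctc
Tiparp, chr3:65528197-65528446, plus strand: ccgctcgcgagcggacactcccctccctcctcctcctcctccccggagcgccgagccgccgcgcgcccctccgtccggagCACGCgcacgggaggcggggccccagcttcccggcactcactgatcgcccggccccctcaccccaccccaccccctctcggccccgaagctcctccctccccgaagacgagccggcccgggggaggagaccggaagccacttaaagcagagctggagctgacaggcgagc
Cyp1a1, chr9:57697363-57697612, plus strand: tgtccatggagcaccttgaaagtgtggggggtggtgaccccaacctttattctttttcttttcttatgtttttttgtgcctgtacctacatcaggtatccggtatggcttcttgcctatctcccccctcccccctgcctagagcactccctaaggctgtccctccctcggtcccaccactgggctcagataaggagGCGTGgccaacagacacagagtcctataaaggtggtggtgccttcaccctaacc
Cyp1b1, chr17:79715062-79715311, minus strand: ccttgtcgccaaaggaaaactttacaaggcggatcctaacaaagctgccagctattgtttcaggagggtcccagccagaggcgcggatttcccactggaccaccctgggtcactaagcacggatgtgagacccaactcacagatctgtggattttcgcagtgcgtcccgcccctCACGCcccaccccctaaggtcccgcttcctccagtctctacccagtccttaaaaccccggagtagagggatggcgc
Ahrr held 3 cores, all on its own strand, whose first bases lie 107, 82 and 27 bases before the start. Cyp1a1 held 1 core on its own strand, 54 bases before the start. Tiparp and Cyp1b1 each held 1 on the other strand, at 170 and 76 bases. Arnt held 1 and Cyp1a2 held 0. The start used for Cyp1a1 is not the outermost one annotated, because its window lies inside the gene, which begins at 57687928. The Arnt window ends at 95434389, past the annotated gene start at 95434367. The longer form TNGCGTG was found once, in Ahrr, and in 4.1% of all promoters. A match is a description of the letters, these windows leave out elements farther away, and no binding was measured.

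Ahrr, the AhR repressor, competes with the receptor for ARNT and is itself a target. It read -2.61, -3.87, -3.71, -2.595 and -2.545 in DMBA 1 to 5, and its lowest, median and highest values in untreated tumours were -2.43, -1.94 and -1.48. Every DMBA-treated tumour was below every untreated tumour, with DMBA 2 and DMBA 3 lowest. The mean was -3.07 ± 0.66 in DMBA-treated tumours (n = 5, 8.38-fold lower than the reference, adjusted p = 5.2e-05) and -1.98 ± 0.38 in untreated tumours (n = 6, 3.95-fold lower, adjusted p = 1.66e-06). Each table reads it through 1 feature, annotated to the same transcript.

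Tiparp, a mono-ADP-ribosyltransferase that shuts AhR signalling down after it is induced, read -2.64, -2.58, -2.24, -2.61 and -2.18 in DMBA 1 to 5. Its lowest, median and highest values in untreated tumours were -1.98, -1.55 and -0.90. Again every DMBA-treated tumour lay below every untreated tumour. The mean was -2.45 ± 0.22 in DMBA-treated tumours (n = 5, 5.46-fold lower than the reference, adjusted p = 4.31e-06) and -1.52 ± 0.42 in untreated tumours (n = 6, 2.87-fold lower, adjusted p = 1.86e-05).

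Cyp1a1, the hydrocarbon hydroxylase whose induction is the usual sign of an active AhR, was also low. It read -2.19, -2.64, -2.42, -1.96 and -2.63 in DMBA 1 to 5, and its lowest, median and highest values in untreated tumours were -2.31, -1.69 and -1.38. The groups overlapped through DMBA 1 and DMBA 4 on one side and untreated 6 on the other. The mean was -2.37 ± 0.30 in DMBA-treated tumours (n = 5, 5.16-fold lower than the reference, adjusted p = 9.79e-06) and -1.77 ± 0.32 in untreated tumours (n = 6, 3.41-fold lower, adjusted p = 1.6e-06).

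Cyp1a2, the liver form that metabolises caffeine and aromatic amines, did not differ from the reference by the test. It read 0.51, 0.81, -0.16, -0.39 and -0.19 in DMBA 1 to 5, and its lowest, median and highest values in untreated tumours were -0.11, 0.08 and 0.98. Tumours lay on both sides of 0 in each group. The mean was 0.12 ± 0.52 in DMBA-treated tumours (n = 5, 95% interval -0.35 to 0.59, adjusted p = 0.644) and 0.22 ± 0.41 in untreated tumours (n = 6, 95% interval -0.11 to 0.54, adjusted p = 0.224). The 2 features of the DMBA table, annotated to the same transcript, put different tumours on top, feature 898 DMBA 1 at 0.99 and feature 38709 DMBA 2 at 1.26. The liver markers measured were all called lower, from Ttr at -4.40 to Fgb at -2.295 in DMBA-treated tumours and from Cps1 at -7.17 to Tat at -0.79 in untreated tumours. Tat was at -2.74 in DMBA-treated tumours. Its groups did not overlap and its means were at least 1 apart, as for 8.34% of all genes. The other liver markers of both tables did not stand so apart. The signal behind the Cyp1a2 ratio is unknown here, and its part in the values near 0 was not tested.

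Cyp1b1, the form expressed outside the liver, had the widest spread of the 7 genes. It read -0.03, -0.42, -2.25, -1.82 and -2.70 in DMBA 1 to 5, and its lowest, median and highest values in untreated tumours were -1.77, -1.65 and -0.99. DMBA 1 and DMBA 2 lay above every untreated tumour, and DMBA 3, DMBA 4 and DMBA 5 below every one. The mean was -1.44 ± 1.17 in DMBA-treated tumours (n = 5, 2.72-fold lower than the reference, adjusted p = 0.0209) and -1.52 ± 0.31 in untreated tumours (n = 6, 2.88-fold lower, adjusted p = 4.2e-06). Its SD exceeded that of 97.2% of all genes in the DMBA table and of 59.9% in the untreated table. The DMBA call ended without DMBA 3, DMBA 4 or DMBA 5 (adjusted p = 0.0642, 0.0655 and 0.0605), with DMBA 3 and DMBA 4 averaged (adjusted p = 0.062) and against 1.5-fold (adjusted p = 0.129).

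Both Cyp1b1 features of the DMBA table put DMBA 1 and DMBA 2 on top. Feature 3771 read 0.10, 0.01, -2.996, -2.52 and -2.76 in DMBA 1 to 5. Feature 9856, annotated to a cDNA clone, read -0.155, -0.845, -1.51, -1.115 and -2.65. On feature 3771, 3 tumours lay below every untreated tumour, and on feature 9856 only 1 did, DMBA 5. How low DMBA 3 and DMBA 4 were thus depended on the feature.

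The genes whose tumour-to-tumour pattern was most like that of Cyp1b1 were Vgll3, a cofactor of TEAD factors, Sfrp2, a secreted modulator of Wnt signals, and 4430402I18Rik. Likeness was the Pearson r of deviations from the group means over the 11 tumours, among 11813 genes with a pooled SD of at least 0.25, and it was 0.977, 0.963 and 0.963. Sfrp2 read -0.26, -0.42, -3.57, -3.06 and -3.63 in DMBA 1 to 5, and its untreated values lay between -3.86 and -2.71. Within the groups its r with Cyp1b1 was 0.983 over the 5 DMBA-treated and 0.724 over the 6 untreated tumours, and for Vgll3 it was 0.995 and 0.943. The points share their array and the reference, and the r values of DMBA-treated tumours rest mainly on DMBA 1 and DMBA 2 against the others.

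The fibroblast marker median, like Cyp1b1, was highest in DMBA 1 and DMBA 2 among DMBA-treated tumours. The median log2 ratio over 10 fibroblast markers was -2.94, -2.93, -3.68, -3.17 and -3.98 in DMBA 1 to 5 and between -3.65 and -2.67 in untreated tumours, where untreated 6, the highest for Cyp1b1, was also the highest. Of these markers 9 were called lower in DMBA-treated tumours and 10 in untreated tumours, and 0 were called higher. The median over 9 endothelial markers was -0.69, -0.34, -0.82, -0.94 and -1.71 in DMBA 1 to 5 and between -1.475 and -0.90 in untreated tumours. It too was highest in DMBA 2 and DMBA 1, though DMBA 3 was close to DMBA 1, and untreated 2 rather than untreated 6 was the highest. The basal epithelial median was -2.13 in DMBA 2 and -2.33 in DMBA 1, against -2.53 to -2.35 in the other DMBA-treated tumours. In untreated tumours it was highest in untreated 3 at -2.90, with untreated 6 at -3.43. The medians of the adipocyte and liver lists were also highest in DMBA 1 and DMBA 2 and in untreated 2 and untreated 6. The adipocyte median was -3.83, -3.53, -4.12, -4.40 and -4.045 in DMBA 1 to 5, and -2.84 and -3.003 in untreated 2 and 6 against -3.99 to -3.63 in the other untreated tumours. The liver median was -2.645, -2.35, -3.08, -2.835 and -2.81 in DMBA 1 to 5, and -3.41 and -3.45 in untreated 2 and 6 against -3.77 to -3.49 in the others. In the luminal, macrophage and T and NK cell lists a tumour other than DMBA 1 or DMBA 2 was the highest of the DMBA-treated tumours. The part of all these cell types in the Cyp1b1 values was not tested.

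**Figure D3:**
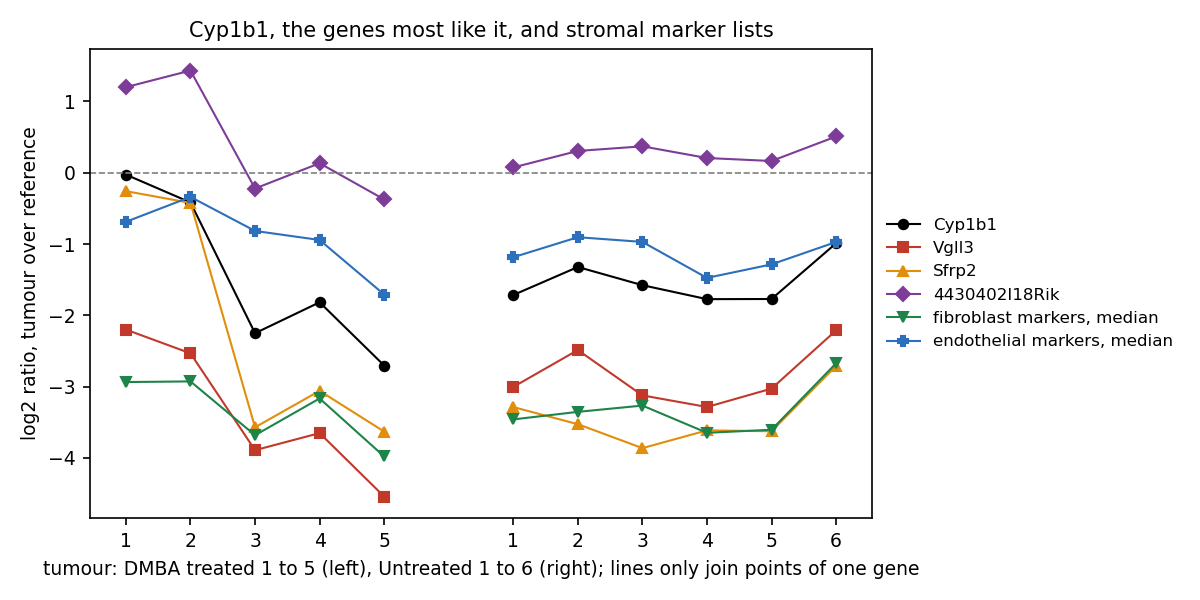
Log2 ratio (vertical axis) of Cyp1b1, of the 3 genes most like it and of the median fibroblast and endothelial markers in DMBA-treated tumours 1 to 5 (left) and untreated tumours 1 to 6 (right); lines join the points of a gene and show no order. Cyp1b1 and Sfrp2 are near 0 in DMBA 1 and DMBA 2 and below -1.8 in DMBA 3 to DMBA 5.

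Ahrr had the next largest spread within groups, a pooled SD of 0.53 against 0.81 for Cyp1b1. The genes most like it were Mcpt1, a mast cell protease, Il1f6, a cytokine of the interleukin 1 family, and Dzip1, with r of 0.925, 0.908 and 0.901 over the 11 tumours. Mcpt1 read -0.07, -0.96, -0.79, 0.49 and 0.40 in DMBA 1 to 5. None of these 3 genes was among the 3 most like Cyp1b1. These r values, as those of Cyp1b1, are the highest found among 11813 genes over 11 tumours. How high such a search would reach by chance was not tested.

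DMBA-treated and untreated tumours lie in separate tables with different array designs, so group and table cannot be told apart and no test was made between them. The groups can be set side by side. Ahr, Ahrr, Tiparp, Cyp1a1, Arnt and Cyp1a2 had the lower mean in DMBA-treated tumours, with differences on the log2 scale of -0.50, -1.085, -0.93, -0.60, -0.205 and -0.10, while Cyp1b1 differed by 0.08. The sign for Cyp1b1 turned with features of the same annotation (-0.11), without DMBA 1 (-0.27) and without DMBA 2 (-0.175), and its highest difference was 0.40, without DMBA 5. That for Cyp1a2 turned without DMBA 4 (0.03) and without untreated 3 (0.05), so neither gene has a settled order of the groups. By single DMBA features 7780, 34207, 43056 and 37365 the Arnt difference was 0.256, 0.055, -0.005 and -1.127. The order of the groups is thus not settled for Arnt either. Tumours of the groups did not overlap for 2 of the 7 genes, Ahrr and Tiparp, against 18.2% of all genes in both tables. Both were lower in DMBA-treated tumours, as were 9.84% of all genes, while 0 of 7 were higher without overlap (8.37% of all genes). With means at least 1 apart as well, 1 of the 7 was left, Ahrr, against 8.34% of all genes. By direction that is 1 of 7 lower (5.06% of all genes) and 0 of 7 higher (3.27%) in DMBA-treated tumours. The median difference over all genes was -0.01.

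The gap of Ahrr and Tiparp depends on how arrays are scaled. With quantile normalization over all arrays the groups overlapped for both genes, and the differences were -0.90 for Ahrr and -0.69 for Tiparp. With every array scaled to the same SD, Ahrr overlapped at a difference of -0.86, and Tiparp stayed apart without overlap at -0.77. The Ahrr difference was under 1 in size without DMBA 2 (-0.885), DMBA 3 (-0.92) or untreated 4 (-0.98), and that of Tiparp was at least 1 in size without untreated 1 (-1.001) or untreated 4 (-1.02). Cyp1a1 did not overlap without untreated 6, at -0.71, nor did Ahr without untreated 4, at -0.62.

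**Figure D4:**
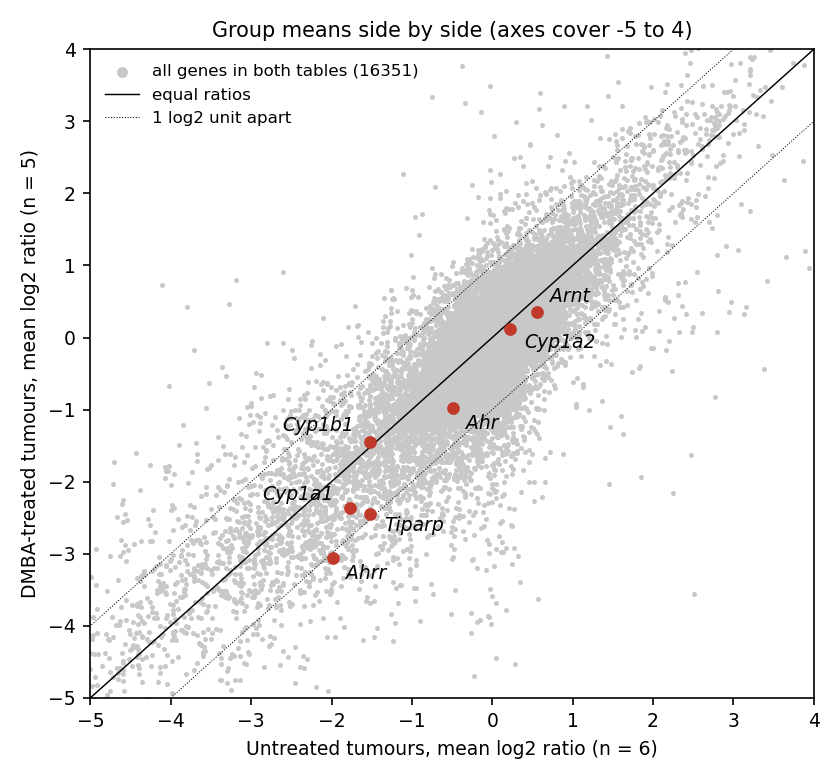
Mean log2 ratio of DMBA-treated tumours (vertical axis, n = 5) against that of untreated tumours (horizontal axis, n = 6) for 16351 genes in grey and the 7 genes of the pathway in red; the solid line marks equal ratios and the dotted lines 1 log2 unit. Ahrr lies at the lower dotted line, at -3.07 and -1.98, Tiparp and Cyp1a1 lie between it and equality, and Cyp1b1 lies close to the line of equality.

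Around the core pathway, 5 lists of genes were read in the same way, as counts beside the shares over all genes given above. Of the chaperones and cofactors of AhR, 3 of 8 measured genes were higher and 1 was lower in DMBA-treated tumours (median 0.12), and 1 higher and 1 lower of 8 in untreated tumours (median -0.01). Ncoa3, a coactivator, was at 1.22 ± 0.06 in DMBA-treated tumours (n = 5, adjusted p = 3.44e-05) and at 0.00 ± 0.17 in untreated tumours (n = 6, adjusted p = 0.984), and the tumours did not overlap. Its 3 DMBA features averaged 0.18, 1.63 and 1.85, and the first of them was not called (adjusted p over all features 0.284). Ptges3, the p23 chaperone, was at 0.74 ± 0.15 in DMBA-treated tumours (adjusted p = 0.000739) and at -0.06 ± 0.25 in untreated tumours (adjusted p = 0.627). Of its 2 DMBA features, 1 at 0.34 was not called (adjusted p over all features 0.0557). Rela, an NF-kappaB subunit, was at 0.67 ± 0.30 (adjusted p = 0.00457) and at 0.26 ± 0.17 (adjusted p = 0.0344) in DMBA-treated and untreated tumours. Of its 11 DMBA features 4 were not called, and its untreated call ended without untreated 1, 2, 3 or 6 (adjusted p = 0.0565, 0.0964, 0.0894 and 0.0792). Nrip1, a corepressor, was below the reference in both groups, at -0.66 ± 0.17 in DMBA-treated tumours (adjusted p = 0.00152) and -0.57 ± 0.16 in untreated tumours (adjusted p = 0.000427). Of these 8 genes 2 did not overlap between groups, against 18.2% of all genes. With means at least 1 apart as well, 1 was left, Ncoa3, against 8.34% of all genes.

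Of the other bHLH-PAS factors, 0 of 12 were higher and 9 lower in DMBA-treated tumours (median -0.67), against 2 higher and 5 lower of 12 in untreated tumours (median -0.10). Arnt2, the paralog of Arnt known from neurons, read between -2.71 and -1.01 in DMBA-treated tumours and between 0.12 and 0.83 in untreated tumours. Its mean was -2.003 ± 0.78 in DMBA-treated tumours (n = 5, adjusted p = 0.000861) and 0.46 ± 0.24 in untreated tumours (n = 6, adjusted p = 0.00383), each through 1 feature annotated to the same transcript. Epas1, the hypoxia factor HIF-2 alpha, was at -0.73 ± 0.41 in DMBA-treated tumours (adjusted p = 0.00789) and 0.29 ± 0.29 in untreated tumours (adjusted p = 0.0525). With only the Epas1 feature annotated as in the untreated table, the groups overlapped at a difference of -0.46, and the difference was under 1 in size with quantile normalization (-0.94), with DMBA 3 and 4 averaged (-0.95), and without DMBA 4 (-0.86), untreated 3 (-0.96) or untreated 4 (-0.96). Npas1, a factor of neurons, was at -1.74 ± 0.53 in DMBA-treated tumours (adjusted p = 0.000346) and -1.39 ± 0.21 in untreated tumours (adjusted p = 1.83e-06), and Sim2, a transcription factor of the same family, at -1.42 ± 0.35 (adjusted p = 0.0002) and -1.08 ± 0.13 (adjusted p = 3.35e-06) in the same order. Clock, a circadian factor, was at -0.60 ± 0.22 in DMBA-treated tumours (adjusted p = 0.0037) and -0.93 ± 0.29 in untreated tumours (adjusted p = 0.000103). Sim1 varied most, at -1.34 ± 0.94 in DMBA-treated tumours (adjusted p = 0.0125) and -1.30 ± 0.95 in untreated tumours (adjusted p = 0.0045). Of these 12 genes 3 did not overlap between groups, against 18.2% of all genes. With means at least 1 apart as well, 2 were left, Arnt2 and Epas1, against 8.34% of all genes.

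Of the other AhR targets 2 of 14 were higher and 8 lower in DMBA-treated tumours (median -0.65), and 3 higher and 5 lower of 14 in untreated tumours (median -0.14). Gsta1, a glutathione transferase, was at -3.57 ± 0.35 in DMBA-treated tumours (n = 5, adjusted p = 2.59e-06) and -2.20 ± 0.52 in untreated tumours (n = 6, adjusted p = 4.39e-06), without overlap as deposited but overlapping with arrays scaled to one SD (difference -1.105). Cyp2s1 was at -3.12 ± 0.92 in DMBA-treated tumours (adjusted p = 0.00021) and -2.78 ± 0.57 in untreated tumours (adjusted p = 1.34e-06), and Serpinb2, an inhibitor of plasminogen activators, at -2.63 ± 0.27 (adjusted p = 4.88e-06) and -2.91 ± 0.62 (adjusted p = 1.63e-06) in that order. Xdh, xanthine dehydrogenase, which mammary epithelium uses to secrete milk fat, was above the reference in both groups, at 1.95 ± 0.32 (adjusted p = 3.08e-05) in DMBA-treated and 1.76 ± 0.735 (adjusted p = 0.000168) in untreated tumours. Nqo1, the quinone reductase that AhR and NRF2 both induce, was not called, at 0.64 ± 0.97 in DMBA-treated tumours (adjusted p = 0.154) and 0.07 ± 0.76 in untreated tumours (adjusted p = 0.829).

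Fgf21 and Ugt1a6b stood apart between the groups in the deposited values as well. Fgf21, a fasting hormone, was at -1.615 ± 0.29 in DMBA-treated tumours (adjusted p = 6.11e-05) and -0.55 ± 0.17 in untreated tumours (adjusted p = 0.000657). Its difference of -1.07 was under 1 in size with quantile normalization (-0.79), with arrays scaled to one SD (-0.97), with DMBA 3 and 4 averaged (-0.999) and without DMBA 3 (-0.97), in each case without overlap. Ugt1a6b, a glucuronidating enzyme, ran the other way, at -1.89 ± 0.35 in DMBA-treated tumours (adjusted p = 5.04e-05) and -3.96 ± 0.36 in untreated tumours (adjusted p = 9.12e-09). Genes of the Ugt1a locus share exons, so its value is uncertain. Over the list 4 of 14 genes did not overlap between groups, 3 lower and 1 higher in DMBA-treated tumours, against 18.2% of all genes. With means at least 1 apart as well, 3 of 14 were left, against 8.34% of all genes.

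Among the partners of CYP1 enzymes in hydrocarbon metabolism 2 of 10 were higher and 6 lower in DMBA-treated tumours (median -0.48), and 1 higher and 3 lower of 10 in untreated tumours (median -0.04). Ephx1, the microsomal epoxide hydrolase that acts with CYP1B1 on DMBA, was above the reference in every tumour, at 1.36 ± 0.18 in DMBA-treated tumours (n = 5, adjusted p = 4.96e-05) and 1.51 ± 0.30 in untreated tumours (n = 6, adjusted p = 3.82e-06). Sult1a1, a sulfotransferase, was at -4.81 ± 0.33 in DMBA-treated tumours (adjusted p = 1.12e-06) and -4.05 ± 0.30 in untreated tumours (adjusted p = 3.97e-09). Cyb5a, cytochrome b5, was at -1.685 ± 0.40 (adjusted p = 0.000139) and -1.095 ± 0.51 (adjusted p = 0.000465), and Ephx2, the soluble epoxide hydrolase, at -1.64 ± 0.16 (adjusted p = 1.63e-05) and -1.125 ± 0.32 (adjusted p = 3.87e-05), each in DMBA-treated and then untreated tumours. Gstm2, a glutathione transferase, was at -2.35 ± 0.67 in DMBA-treated tumours (adjusted p = 0.000205) and spread between -2.76 and 1.404 in untreated tumours (adjusted p = 0.0623). None of these 10 genes stood apart between the groups by at least 1 without overlap, against 8.34% of all genes.

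The last list holds enzymes of tryptophan breakdown, only some of which make endogenous AhR ligands such as kynurenine. It had 1 of 9 higher and 4 lower in DMBA-treated tumours (median -0.62), and 0 higher and 3 lower of 7 in untreated tumours (median -0.17). Aadat, a kynurenine aminotransferase, was at -4.18 ± 0.34 in DMBA-treated tumours (n = 5, adjusted p = 1.45e-06) and -2.87 ± 0.32 in untreated tumours (n = 6, adjusted p = 4.64e-08), without overlap. It was the only 1 of the 7 genes in both tables that did not overlap, against 18.2% of all genes. Its means were also at least 1 apart, against 8.34% of all genes. Kynu, kynureninase, was at -1.49 ± 0.80 in DMBA-treated tumours (adjusted p = 0.00398) and -0.49 ± 0.52 in untreated tumours (adjusted p = 0.0359). Of its 2 DMBA features, 1 at -0.51 was not called (adjusted p over all features 0.355) and the other was at -2.48. The untreated call ended with array weights and without untreated 2, untreated 4 or untreated 6 (adjusted p = 0.0639, 0.103, 0.0636 and 0.0949). Kmo, kynurenine monooxygenase, was at -0.79 ± 0.51 in DMBA-treated tumours (adjusted p = 0.0116) and -0.17 ± 0.21 in untreated tumours (adjusted p = 0.167). Ido1 and Tdo2, which start the pathway, were at 0.29 ± 0.41 (adjusted p = 0.18) and -0.62 ± 0.85 (adjusted p = 0.127) in DMBA-treated tumours, and at -0.17 ± 0.22 (adjusted p = 0.164) and -0.37 ± 0.23 (adjusted p = 0.012) in untreated tumours. Afmid, kynurenine formamidase, has a value only in the DMBA table, at -0.62 ± 0.47 (adjusted p = 0.0238), and its call ended without DMBA 5 (adjusted p = 0.0589) and on 1 of its 2 features alone (adjusted p over all features 0.167). Against 1.5-fold the calls of Afmid, Kmo, Nrip1, Ptges3, Rela and Sim1 ended in DMBA-treated tumours (adjusted p between 0.105 and 0.969), and those of Kynu, Nrip1, Rela, Sim1 and Tdo2 in untreated tumours (adjusted p between 0.0797 and 1).

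**Figure D5:**
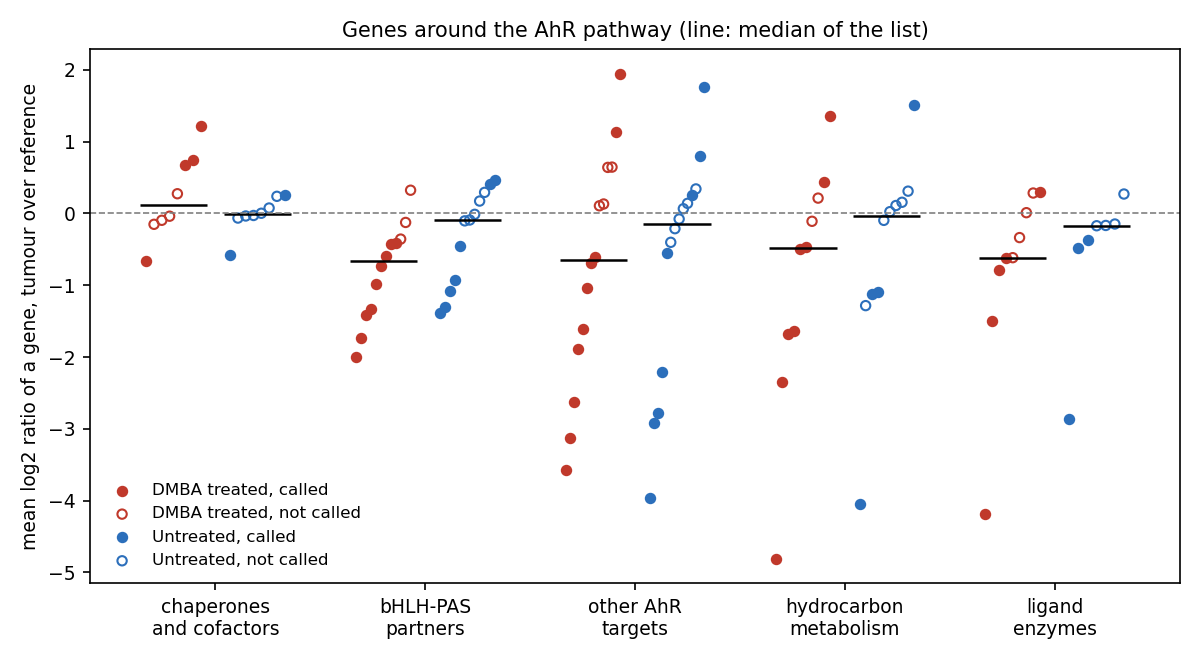
Mean log2 ratio of each gene (vertical axis) in 5 lists around the AhR pathway, DMBA-treated tumours left and untreated tumours right in each list; filled points passed the test against the reference at an adjusted p under 0.05, open points did not, and lines are list medians. The medians lie between -0.67 and 0.12 in DMBA-treated tumours and between -0.17 and -0.01 in untreated tumours.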

How the data were processed

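The deposited values are log2 ratios of 2-colour arrays, in a table of 5 DMBA-treated and a table of 6 untreated tumours. The log base is inferred from values between -10.70 and 8.37. How background was corrected and arrays were normalized is unknown here, as are the signals of the scanner. The stated SDs, intervals and p-values rest on the spread among arrays. They leave out any error shared by all arrays of a table, such as one from the reference or from a feature. Array medians lay between -0.01 and 0.01 and array SDs between 1.32 and 1.45; no value of the members was an exact 0.

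Features with 1 symbol (33653 and 18658) were named through the platform annotation, updated through Entrez identifiers to GRCm38.p6, and averaged per gene (19087 and 16887 genes, each on at least 4 arrays). Each table was fitted with limma 3.58.1 in R 4.3.3 (intercept, eBayes, two-sided test against 0, Benjamini-Hochberg), tested on simulated data first. Tumours were numbered in accession order. Members and lists were chosen with earlier results of these data known. All members were named, with, from each list and group, the 4 called genes farthest from 0, genes whose groups stood at least 1 apart without overlap, and the 3 genes most like each of the 2 most variable members. Each named gene is given in both groups. Nqo1, Ido1, the luminal markers Cdh1 and Esrp1 and the liver markers Ttr, Fgb, Cps1 and Tat were added after their values were seen. Alternatives were features singly or by median, zeros as missing, quantile normalization, SD scaling, array weights, a 1.5-fold test, matched accessions, DMBA 3 and 4 averaged, and each tumour left out.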

Additional observations from a re-analysis of the deposited data

Results flagged for a closer look

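In 69 sets of values, each 1 gene or feature in 1 group, a single tumour lying far from the others was looked for, and chance alone would mark about 1 set in 20. In DMBA-treated tumours this held for Cyp2s1, where DMBA 5 was at -1.52 above the others, for Ephx2, where DMBA 1 was at -1.36, and for Nrip1, where DMBA 3 was at -0.36. In untreated tumours it held for Sim1, where untreated 1 was at -3.20, and for Tdo2, where untreated 2 was at -0.82. None of the 7 members had such a tumour.

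Arnt2 was below the reference in all 5 DMBA-treated tumours and above it in all 6 untreated tumours, with means -2.47 apart on the log2 scale. The difference was not tested, because group and table cannot be told apart.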

How the results depend on the processing

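Of the 7 members, 5 were called lower than the reference in each group, and alternatives gave 4 or 5 in both groups. Over all genes, 11031 were called in DMBA-treated and 10281 in untreated tumours, and 5082 and 4056 against 1.5-fold. The sign of Arnt turned in DMBA-treated tumours with feature 37365 alone (-0.57, adjusted p = 0.012). The number of members apart by at least 1 without overlap was 1 as reported (8.34% of all genes). It was 0 with quantile normalization (7.85% of all genes) and 0 with arrays scaled to one SD (8.18%). With single tumours left out it lay between 0 and 2 (between 8.45% and 8.98% of all genes). Members without overlap, 2 as reported (18.2% of all genes), numbered 0 with quantile normalization and 1 with arrays scaled to one SD, and 2 or 3 with single tumours left out. The share of all genes without overlap is not given for these alternatives. The cause of these shifts in the counts was not tested. No paired analysis was possible because tumour numbers follow accession order and each table holds a single group.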
